A study of Homo sapiens with 42 samples.

Results

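The clustered protocadherins are cell adhesion genes that lie side by side on the plus strand of human chromosome 5. They were taken from the GENCODE annotation of hg38 as the protein-coding genes whose symbols begin with PCDHA, PCDHB or PCDHG, and 53 of 20033 protein-coding promoters belonged to them. There were 15 alpha genes, 16 beta genes and 22 gamma genes, the last made up of 12 PCDHGA genes, 7 PCDHGB genes and PCDHGC3, PCDHGC4 and PCDHGC5. A narrower reading of the naming rule that leaves out PCDHGA and PCDHGB symbols kept 34 genes. From the first promoter window to the end of the last gene the cluster ran over 728 kb (hg38 chr5:140784640-141512975).

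ChIP-seq, which sequences the DNA pulled down with an antibody, had been run in 2 human lung cancer cell lines. NCI-H661 (H661) comes from a large cell carcinoma and makes the embryonic chromatin factors DPPA2 and DPPA4 (DPPA2/4) itself, and it was profiled without treatment. NCI-H1299 (H1299) does not normally make them and carried doxycycline-inducible FLAG-tagged DPPA2 and V5-tagged DPPA4, so that the DOX group received 2 µg/mL doxycycline and the CTRL group water, both for 7 days. H3K27ac, H2AK119ub, H3K4me1, H3K36me3 and H3K9me3 had 2 libraries in each of H661, H1299 DOX and H1299 CTRL. H661 also had H3K36me2, DPPA2 and DPPA4 with 2 libraries each and KDM2A and SUZ12 with 1 library each, which gives 38 ChIP libraries beside 4 inputs. H3K4me3 and H3K27me3 were not analysed here. Nothing in the labels states that the replicates were grown as separate cultures, and p-values here measure only the spread between these libraries, which may be technical.

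Each alpha and gamma gene begins with its own large variable exon, which is spliced to constant exons shared within its subcluster, whereas beta genes consist of their own exon alone. In neurons each cell uses only a few of the variable promoters, and the resulting mixture of adhesion proteins gives cells a surface identity. Promoter choice rests on DNA methylation and on loops formed by CTCF and cohesin, and in mouse neurons SETDB1, a writer of H3K9me3, keeps the cluster in check. The C-type genes (PCDHAC1, PCDHAC2 and the 3 PCDHGC genes) end their subclusters and are known in mouse neurons to be used more constantly than the rest.

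The promoters of 4 members are shown because the results turn on them. They are RefSeq windows (GRCh38.p14, 250 bases before to 50 bases after the start, plus strand) in which capitals mark CGCT, the core letters of the known protocadherin promoter element, and, in PCDHB2, the 10 bases GGTGGCGCTG that contain it. PCDHAC2 (chr5:140966226-140966525) was the member with the only peak of the cluster common to all DPPA2 and DPPA4 libraries. PCDHA10 (chr5:140855647-140855946) was among the strongest H3K9me3 members. PCDHB2 (chr5:141094365-141094664) had H3K27ac in all 3 groups, and PCDHGA3 (chr5:141343579-141343878) had H3K27ac with DOX only. These signals were scored over wider windows and need not lie in the bases shown. The PCDHAC2 peak (chr5:140966517-140967686) reached only the last bases of its sequence. In both H661 libraries the PCDHA10 H3K9me3 islands began at chr5:140856001, after its sequence.
PCDHAC2: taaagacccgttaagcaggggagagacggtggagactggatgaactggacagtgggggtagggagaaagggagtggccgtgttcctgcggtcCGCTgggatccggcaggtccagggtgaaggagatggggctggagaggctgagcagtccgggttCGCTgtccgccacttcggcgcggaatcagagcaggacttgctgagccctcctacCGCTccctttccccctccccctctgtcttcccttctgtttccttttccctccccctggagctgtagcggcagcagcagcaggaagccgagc
PCDHA10: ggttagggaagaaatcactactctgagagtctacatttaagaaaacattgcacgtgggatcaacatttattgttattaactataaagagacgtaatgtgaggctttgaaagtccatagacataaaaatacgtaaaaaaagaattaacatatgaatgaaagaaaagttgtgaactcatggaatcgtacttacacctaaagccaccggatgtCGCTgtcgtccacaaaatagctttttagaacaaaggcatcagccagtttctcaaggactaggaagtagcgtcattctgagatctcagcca
PCDHB2: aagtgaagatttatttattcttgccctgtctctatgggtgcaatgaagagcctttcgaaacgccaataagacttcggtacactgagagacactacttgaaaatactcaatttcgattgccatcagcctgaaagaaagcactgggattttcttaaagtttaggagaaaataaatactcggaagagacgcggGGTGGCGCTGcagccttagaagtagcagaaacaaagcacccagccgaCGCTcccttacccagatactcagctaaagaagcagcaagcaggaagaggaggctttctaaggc
PCDHGA3: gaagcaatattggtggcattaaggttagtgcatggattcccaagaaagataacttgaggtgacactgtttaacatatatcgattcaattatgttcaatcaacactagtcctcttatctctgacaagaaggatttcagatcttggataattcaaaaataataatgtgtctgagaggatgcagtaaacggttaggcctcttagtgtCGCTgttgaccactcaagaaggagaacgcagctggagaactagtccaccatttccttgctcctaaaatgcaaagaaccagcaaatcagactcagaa

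RefSeq promoters were matched for 47 of the 53 members, and CGCT stood on the gene's strand in 46 of these 47 (97.9%), all but PCDHA9, beside 54.3% of the 35116 human promoters in the same table. On either strand 70% of those promoters held it. The 10-mer GGTGGCGCTG was the one most shared among members. It occurred in 12 of 47 promoters, all of beta genes (12 of 14 matched beta genes), against 0.276% of all promoters on either strand. A shortened CTCF motif, CCNNNAGGG, was found on either strand in 3 of 47 (6.38%), against 25.2% of all promoters. No other form of the motif was searched, so a promoter without it may still hold a CTCF site. Members were also poorer in CpG over these 300 bases, with a median of 7 CpG against 14 for all promoters. A match says only that the letters are present.

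The last sequence shown is the stretch of the PCDHA9 variable exon that begins 2000 bases after its start (hg38 chr5:140850382-140850581, plus strand), with each CpG in capitals, because H3K9me3 in H661 lay over such stretches and not over the promoter just upstream.
PCDHA9 exon: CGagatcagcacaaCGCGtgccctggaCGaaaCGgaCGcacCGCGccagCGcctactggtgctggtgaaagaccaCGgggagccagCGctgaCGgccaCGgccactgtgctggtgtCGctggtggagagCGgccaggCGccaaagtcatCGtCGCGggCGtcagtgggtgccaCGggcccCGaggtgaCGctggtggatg

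These 200 bases held 23 CpG at a GC content of 69%, and islands of both H661 H3K9me3 libraries covered them. The 200 bases before the PCDHA9 start held 3 CpG at 35% GC.

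The deposited lists hold islands, which are enriched stretches that the EPIC2 program called in each library against input, with the ChIP and input reads inside each island. A promoter window was the start site plus or minus 1500 bp. It was called in a group when islands with FDR below 0.05 and log2 fold over input above 1 touched it in every library of that group. A promoter with no island has no read count, which is not a count of 0. In H661 the members carried little of any mark except H3K9me3. H3K27ac, a mark of active promoters and enhancers, was called at 2 of 53 members in H661 (PCDHB2 and PCDHGA11), against 58.1% of all promoters. H3K4me1, found at enhancers and promoter flanks, was called at 0 members against 29.6%. H3K36me3, which marks transcribed gene bodies, was called at 0 against 7.17%, and H3K36me2 at 0 against 5.49%. H2AK119ub, the product of Polycomb complex PRC1, was called at 1 member (PCDHAC2) against 24.3%. H3K9me3, a heterochromatin mark, was called at 20 of 53 members against 4.14% of all promoters. Over all groups and targets 22 of the 53 members had no call.

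**Figure D1:**
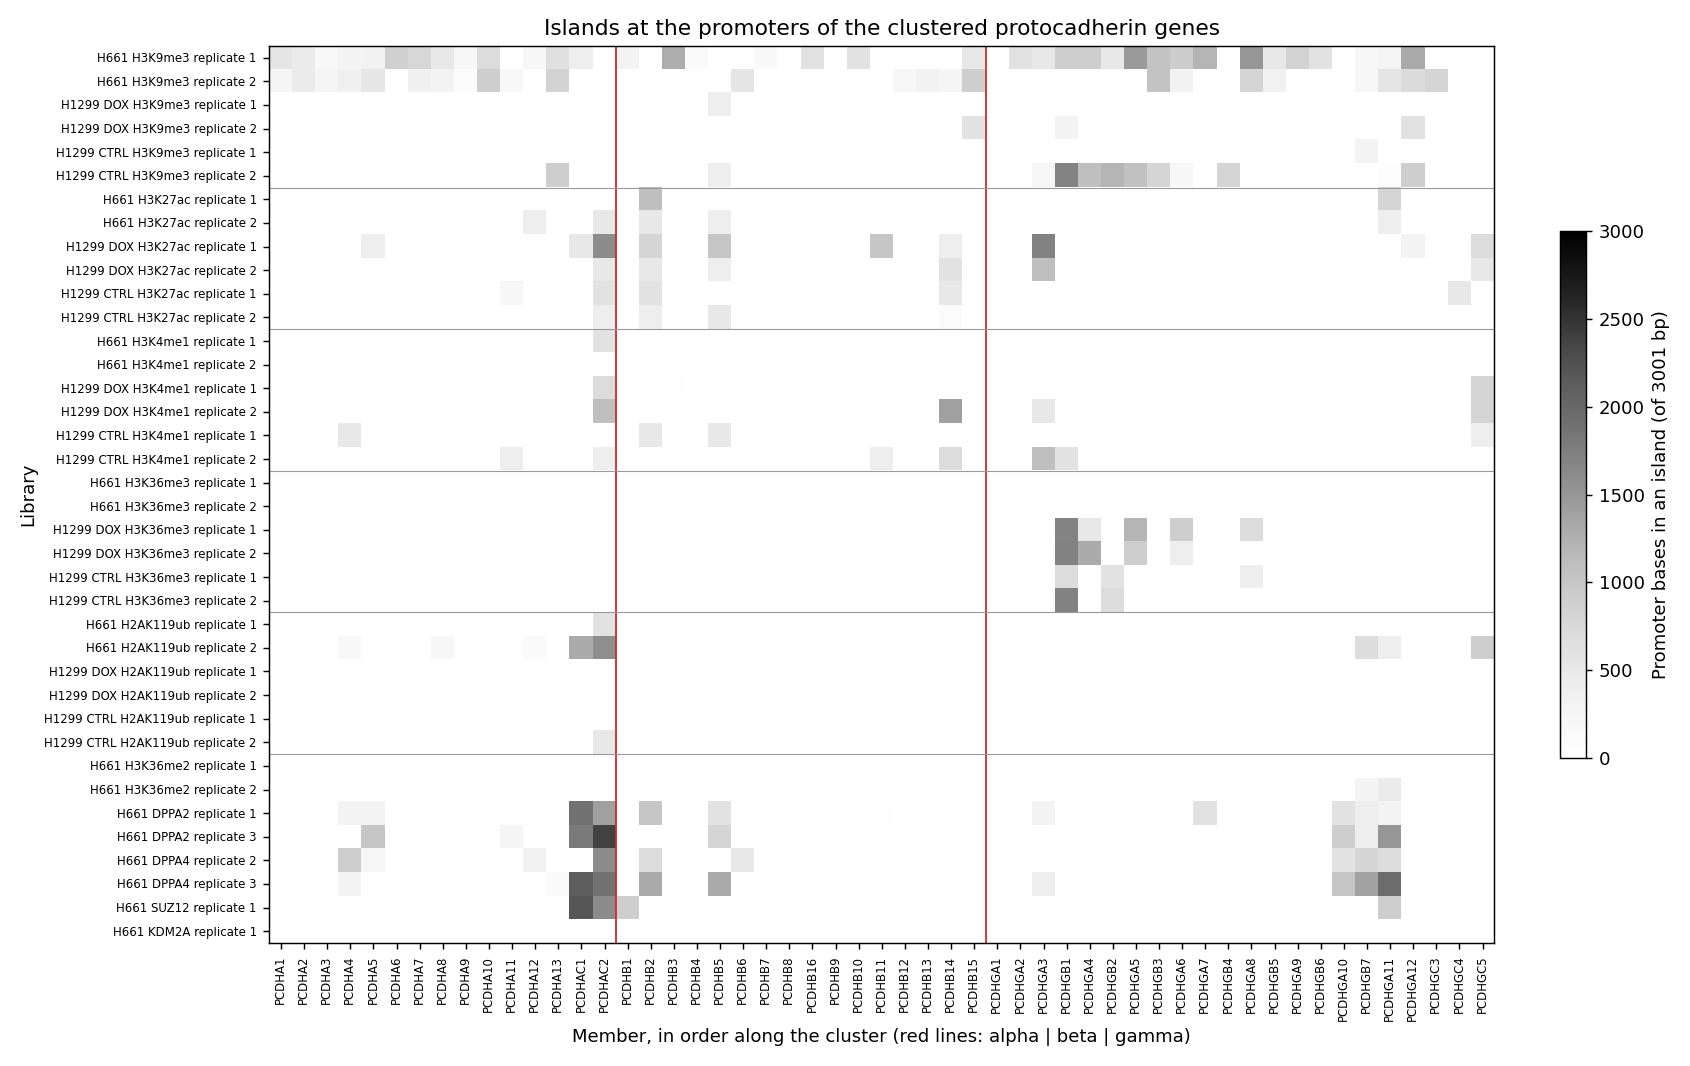
Heat map with the 53 members across, in order along the cluster (red lines part alpha, beta and gamma), and the 38 ChIP libraries down, by mark with H661 above H1299 DOX and H1299 CTRL. The grey scale gives how many of the 3001 bases of a promoter window lay in EPIC2 islands. The H661 H3K9me3 libraries are filled at 37 and 25 members, whereas the H661 H3K27ac libraries are filled at 2 and 5.

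The members called for H3K9me3 in H661 were 11 alpha genes (PCDHA1 to PCDHA5, PCDHA7 to PCDHA10, PCDHA12 and PCDHA13), the beta genes PCDHB13 and PCDHB15, and 7 gamma genes (PCDHGB3, PCDHGA6, PCDHGA8, PCDHGB5, PCDHGB7, PCDHGA11 and PCDHGA12). Some islands touched the windows of 2 neighbours. PCDHGA11 was called by the same islands as PCDHGB7 in both libraries, and these lay in the PCDHGB7 first exon. In replicate 2 PCDHGA6 was touched only by an island in the PCDHGB3 first exon (chr5:141371701-141372700). These calls are therefore not separate from those of the neighbours. The 2 H661 libraries called 37 and 25 members, or 69.8% and 47.2%, where 9.21% and 6.19% of all promoters were called, so that members were called 7.58 and 7.61 times as often as all promoters. PCDHA9 had 37 and 47 ChIP reads in its islands over 0 and 1 input reads. PCDHA10 had 34 and 54 reads over 3 and 7 input reads. PCDHA3 had 8 and 52 reads over 0 and 2 input reads. These 3 had the highest folds in their weaker library (38.5, 7.78 and 21.3), and for PCDHA9 and PCDHA3 these folds rest on 0 to 2 input reads.

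**Figure D2:**
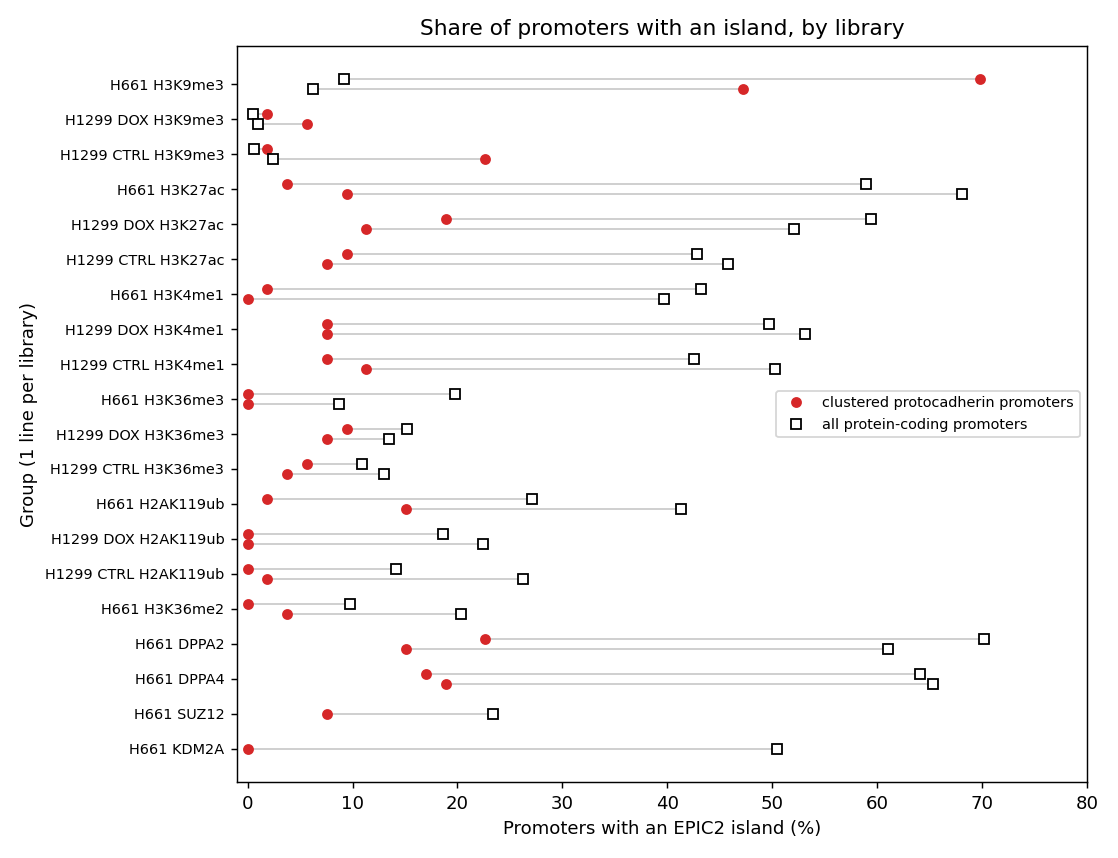
Percentage of promoters touched by an EPIC2 island in each library, with members as red points and all protein-coding promoters as open squares joined by a line, 1 line per library. Members lie right of all promoters for H3K9me3 in every library (69.8% and 47.2% against 9.21% and 6.19% in H661) and left of them for every other target.

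H3K9me3 islands covered 9.95% and 7.07% of the cluster in the H661 libraries, against 2.4% and 3.34% of the genome. By subcluster, coverage was 9.71% and 7.95% in alpha, 8.22% and 4.16% in beta and 15.4% and 11.1% in gamma. Of 4152 genome tiles of the same length, 4.05% and 11.7% were covered at least as much. Within the islands the density of ChIP reads was ordinary for the libraries, at 26.6 and 29 reads per kb in the cluster against 26 and 28.6 genome-wide. The input under the cluster's islands was lower than under islands genome-wide, with 3.99 and 4.52 against 6.41 and 6.04 input reads per kb.

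**Figure D3:**
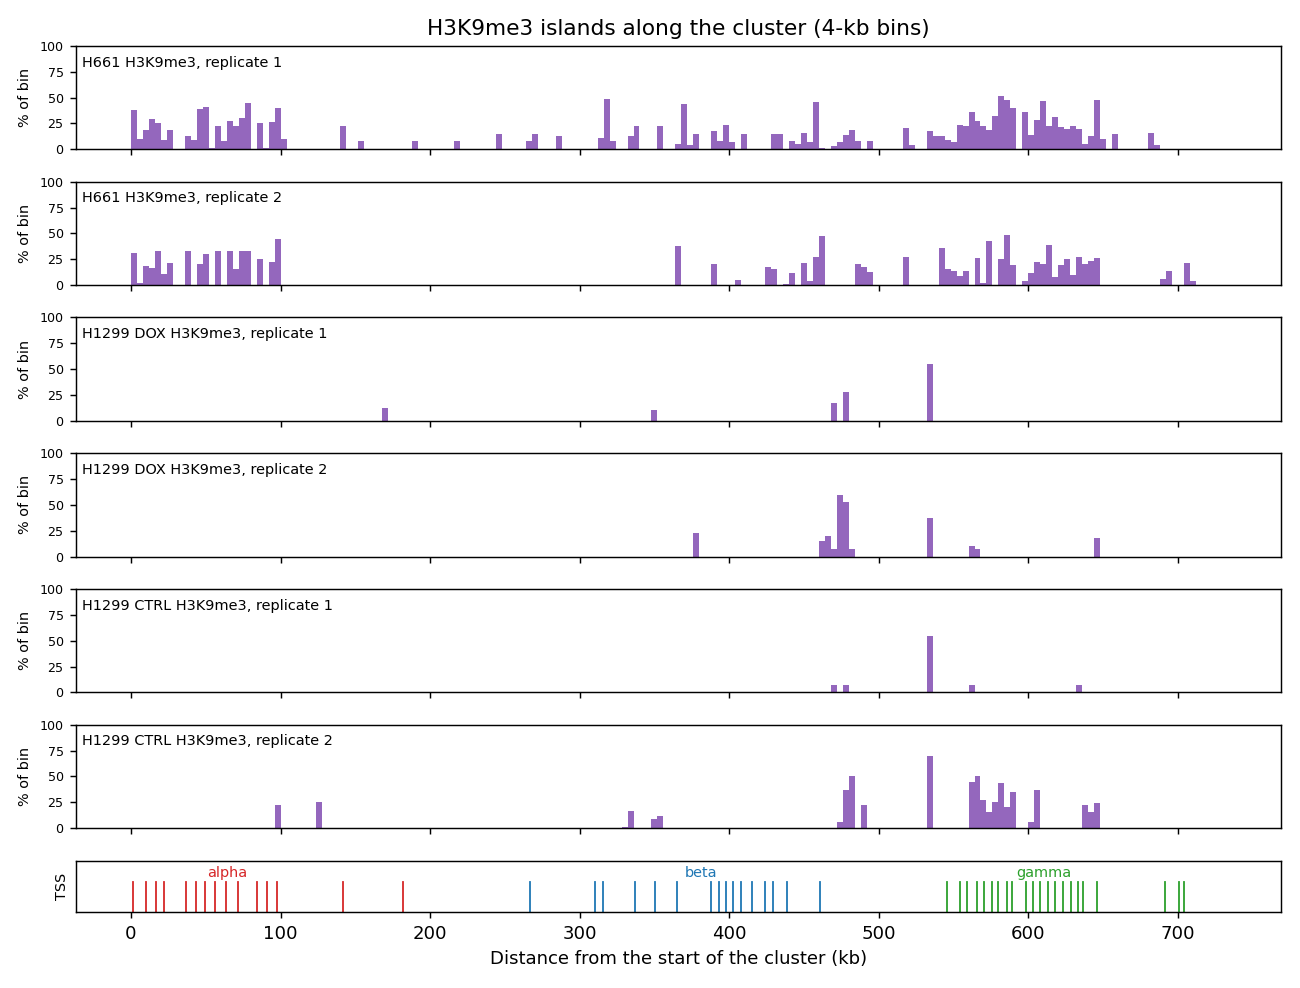
H3K9me3 islands along the cluster, as the percentage of each 4-kb bin in an island (vertical axis) against the distance from the start of the cluster in kb, 1 panel per library with H661 above H1299 DOX and H1299 CTRL, and the members' start sites in the lowest panel. H661 bars stand over alpha (9.71% and 7.95% covered), beta (8.22% and 4.16%) and gamma (15.4% and 11.1%), and H1299 CTRL replicate 2 has bars over gamma (7.99%).

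The H3K9me3 islands of H661 were not centred on the start sites. Counted in bins of 100 bp, coverage of the members was highest 2100 to 2200 bp after the start in replicate 1 (36 of 53 members) and 1700 to 1800 bp after it in replicate 2 (32 of 53). Over the stretch from 1.5 to 2.5 kb after the start, 60.4% and 55.7% of members were covered per bin on average, and over the kb before the start 3.96% and 0.377%. All promoters showed no such shift, with 2.24% and 2.1% in the downstream stretch and 2.21% and 2.37% in the upstream kb. In the alpha genes a mean of 78.7% and 82.7% of members was covered 1.5 to 2.5 kb after the start, in gamma genes 63.6% and 58.2%, and in beta genes 38.8% and 26.9%.

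**Figure D4:**
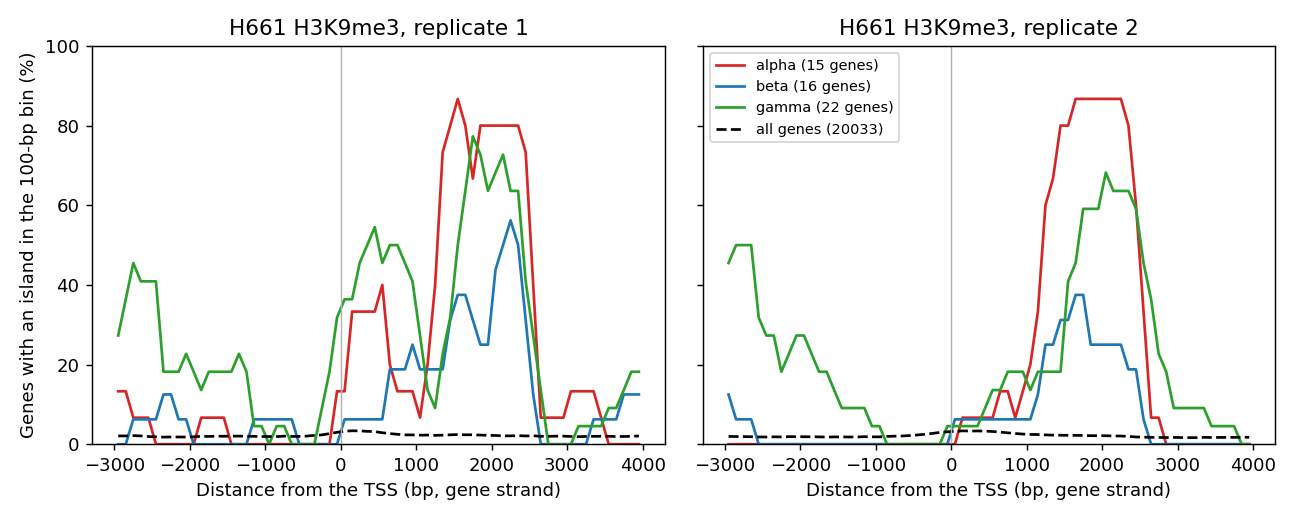
Percentage of genes with an H661 H3K9me3 island in each 100-bp bin from 3000 bp before to 4000 bp after the start site. There is 1 panel per library, with coloured lines for alpha, beta and gamma members and a dashed line for all genes. The highest bins reach 86.7% and 86.7% of alpha, 56.2% and 37.5% of beta and 77.3% and 68.2% of gamma members, against 3.38% and 3.36% of all genes.

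A window from the start to 3000 bp downstream, chosen after this position was seen, called 45 and 39 members in the H661 libraries and 34 in both (64.2%), against 4.13% of all promoters. These were 13 of 15 alpha, 4 of 16 beta and 17 of 22 gamma members. The same window called 0 members in both H1299 DOX libraries, against 0.24% of promoters, and 1 (PCDHGA3) in both H1299 CTRL libraries, against 0.265%.

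The variable exons themselves, annotated as first exons with a median length of 2601 bp, make up 22.1% of the cluster and held 69.8% and 76.6% of the bases under H661 H3K9me3 islands. Islands touched the first exons of 45 and 38 members, of 34 in both libraries, and of all but 4 (PCDHAC2, PCDHB11, PCDHGC4 and PCDHGC5) in at least 1. The share of first exons touched over all genes was not computed, so these counts stand without a background. The median share of the exon covered was 34.3% and 31% over members. Among the most covered were PCDHGB3 with 74% and 76.3% of its exon on 53 and 58 reads, PCDHA13 with 62.1% and 70.9% on 41 and 46 reads, and PCDHA10 with 60.5% and 74.8% on 52 and 54 reads. These 3 were picked for high values in both libraries. Other members differed between the libraries, as PCDHGA5 with 96.5% and 38.6%, PCDHGA12 with 85.1% and 29.9% and PCDHA6 with 74.6% and 31.7%. All 13 alpha genes other than the C-type were touched in both libraries, as were 17 of the 19 such gamma genes, the exceptions being PCDHGA3 and PCDHGB2. None of the 5 C-type members was touched in both: PCDHAC1 was touched in replicate 1 alone (20 reads) and PCDHGC3 in replicate 2 alone (23 reads). Of the beta genes 4 of 16 were touched in both (PCDHB6, PCDHB7, PCDHB13 and PCDHB14), with 6.19% to 23.7% of the exon in replicate 1 and 11.3% to 46.4% in replicate 2. Across members the covered shares in the 2 libraries had a Pearson r of 0.46 (n = 53), given as a description, since members share sequence with each other. Within groups it was 0.10 among the 13 alpha members other than the C-type, 0.11 among the 19 such gamma members and -0.37 among the 16 beta members.

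**Figure D5:**
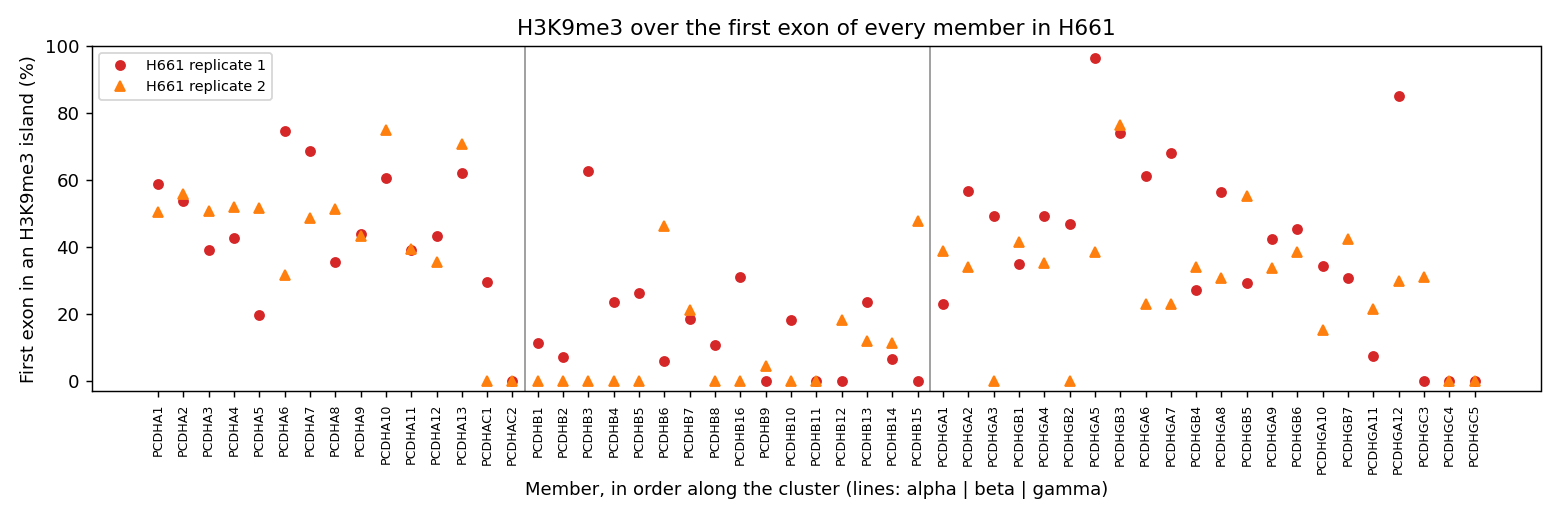
Percentage of each member's first exon under H661 H3K9me3 islands, with members in genome order and the 2 libraries as separate points. Alpha members other than the C-type were covered in both libraries (medians 43.9% and 50.9%), whereas PCDHAC2, PCDHGC4 and PCDHGC5 lay at 0 in both.

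The sequence changed along these exons. The kb before the start had a median GC content of 35.1% and 11 CpG over members, the first kb after it 50.7% and 45 CpG, and the stretch from 1.5 to 2.5 kb after it 65.4% and 87 CpG. The same stretch is where members resemble each other most. A median of 14.8% of its 50-base words occurred elsewhere in the cluster (11.4% in alpha, 50.5% in beta and 5.57% in gamma), and 32 members shared over 10%, whereas 0 members did so in the kb before the start. Reads of near-identical exons cannot be assigned with certainty, so single members there are uncertain, above all the beta genes, and the part of this in the island pattern was not tested. In the promoter windows 10 members shared over 10% of their 50-base words, and H3K9me3 was called at 5 of these 10 and at 15 of the other 43.

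The H3K9me3 calls were also counted by CpG content. A 500-bp stretch of at least 55% GC and an observed over expected CpG ratio of at least 0.65 was present in 32 of 53 members, in 15 of 15 alpha, 1 of 16 beta and 16 of 22 gamma genes. H3K9me3 was called at 17 of these 32 and at 3 of the other 21, whereas over all promoters it was called at 3.62% of those with such a stretch and at 5.54% of the others. The members with most CpG in the window, PCDHAC1 (163) and PCDHAC2 (130), were not called, and no difference by CpG content was tested. The median CpG count of the window was 82 for members called in both H661 libraries, 70.5 for the 22 called in 1 and 57 for the 11 called in 0. The subclusters differ in both properties, so CpG content and subcluster cannot be told apart here.

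Few members had a DPPA2/4 consensus peak in H661. Such a peak, defined as peaks of both DPPA2 and both DPPA4 libraries that overlap by over 25% of each, touched 1 of 53 members (PCDHAC2), against 26.3% of all promoters. Of the 8824 consensus peaks it was the only one inside the cluster (hg38 chr5:140966517-140967686), and it lay in the PCDHAC2 first exon, just after the start. Its narrow peaks had 8.95-fold and 5.24-fold enrichment over input in DPPA2 replicates 1 and 3 and 4.98-fold and 5.79-fold in DPPA4 replicates 2 and 3. Single libraries had peaks at 10 and 1 members for DPPA2, against 62% and 43.3% of all promoters, and at 2 and 1 members for DPPA4, against 43.6% and 42.8%. PCDHGB7 was the only other member with a peak for both factors, at 5.42-fold in DPPA2 replicate 1 and 5.64-fold in DPPA4 replicate 2. The broader EPIC2 domains gave a wider picture. They touched 12 and 8 members for DPPA2, against 70.2% and 61% of all promoters, and 9 and 10 for DPPA4, against 64.1% and 65.3%. They covered 2.23% and 1.95% of the cluster for DPPA2 and 1.46% and 2.7% for DPPA4, or 0.83, 0.582, 0.403 and 0.673 times the genome coverage of the same libraries. PCDHGB7 had DPPA2 islands of 14 and 15 reads and DPPA4 islands of 35 and 85 reads. PCDHGA10 had DPPA2 islands of 22 and 24 reads and DPPA4 islands of 22 and 36 reads. PCDHGA11 had DPPA2 islands of 10 and 40 reads and DPPA4 islands of 19 and 114 reads. PCDHA5 had DPPA2 islands of 9 and 24 reads.

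PCDHAC2, which is CpG-rich (130 CpG, 54.9% GC in its window) and encodes the last alpha isoform, also had Polycomb signals. SUZ12, a core subunit of Polycomb complex PRC2, had narrow peaks at 2 members, PCDHAC1 (2.92-fold) and PCDHAC2 (5.36-fold and 4.54-fold), against 15.6% of all promoters. In the EPIC2 domains SUZ12 had 77 reads over 15 input reads at PCDHAC2, 91 over 26 at PCDHAC1 and 24 over 7 at PCDHB1. KDM2A, an H3K36 demethylase that binds unmethylated CpG, had narrow peaks at 0 members, against 10.5%. H2AK119ub at PCDHAC2 had 16 and 132 reads over 5 and 17 input reads in H661. H2AK119ub replicate 2 was deeper (6649708 against 1318183 island reads) and called 8 members where replicate 1 called 1. The H661 H3K9me3 lists had no island at PCDHAC2, in the window or the first exon. Its H3K27ac islands in H661 were none and 20 reads, and its H3K4me1 islands 19 reads and none. The other C-type members had islands in fewer libraries. PCDHAC1 had 60 and 63 reads for DPPA2, none and 121 for DPPA4 and none and 55 for H2AK119ub in H661, and in H1299 an H3K27ac island in DOX replicate 1 alone (13 reads). PCDHGC4 had an island in 1 library only, H3K27ac in CTRL replicate 1 (10 reads), and PCDHGC5 had H2AK119ub in H661 replicate 2 (28 reads). In H661 the first exons also held 75.9% and 55.5% of the covered bases of the cluster for DPPA2, 65.4% and 75.1% for DPPA4, 66.1% for SUZ12, and 100% and 94.9% for H2AK119ub. They held 0% for KDM2A in H661 (1 island), and 0% for H2AK119ub in DOX replicate 1 (1 island) and in CTRL replicate 2 (2 islands). The 100% for H2AK119ub in H661 replicate 1 likewise rests on 1 island, of 600 bp.

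The induction of DPPA2/4 in H1299 asks whether the marks at the members follow the factors. H3K27ac was called at 6 members in the DOX group (PCDHAC2, PCDHB2, PCDHB5, PCDHB14, PCDHGA3 and PCDHGC5) against 51.3% of all promoters, and at 3 in the CTRL group (PCDHAC2, PCDHB2 and PCDHB14) against 38.3%. A gain was counted where both DOX libraries and neither CTRL library had an island. DOX and CTRL had 1 input library each, so treatment and input cannot be told apart in gains and losses. PCDHGA3 and PCDHGC5 gained H3K27ac (2 of 53, against 5.03% of all promoters), and 0 members lost it (against 0.0799%), so the members' gain was near the background. PCDHGA3 had 75 and 26 reads over 8 and 6 input reads with DOX, and neither CTRL library had an island there. PCDHGC5 had 17 and 10 reads with DOX over 1 input read in each library. Its H3K4me1 islands had 29 and 26 reads with DOX, against 10 reads in CTRL replicate 1 and none in CTRL replicate 2.

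The remaining H3K27ac members differed in how far they moved. PCDHB14 had 13 and 19 reads with DOX and 11 and 7 reads in CTRL, all over 0 input reads, and a second annotated gene shares its start. PCDHB2 had 43 and 11 reads with DOX and 20 and 13 reads in CTRL, and 25 and 26 reads in H661. PCDHB5 had 43 and 10 reads with DOX, against no island and 11 reads in CTRL. PCDHAC2 had 54 and 17 reads with DOX and 17 and 16 reads in CTRL. For PCDHB2, PCDHB5, PCDHAC2, PCDHGA3 and PCDHGC5 the higher DOX value was that of replicate 1. That library was deeper than the other 3 (2777360 island reads against 979366 in DOX replicate 2 and 774886 and 759619 in CTRL), and the part of depth in these values was not tested.

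H3K4me1 was called at 2 members with DOX (PCDHAC2 and PCDHGC5) against 43.9% of all promoters, and at 0 in CTRL against 37.1%. Single libraries called 4 and 4 members with DOX and 4 and 6 in CTRL, so the order of these counts rests on requiring both libraries. No member gained or lost it by the rule, beside 3.23% and 1.12% of all promoters. At PCDHAC2 its islands had 23 and 39 reads with DOX, against no island and 9 reads in CTRL. H2AK119ub was called at 0 members with DOX (11.6% of all promoters) and at 0 in CTRL (8.8%), with 0 gained (3.04%) and 0 lost (2.09%). Its only member island was at PCDHAC2 in CTRL replicate 2, with 14 reads.

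H3K36me3, where called, was at gamma members. It was called at 4 members with DOX (PCDHGB1, PCDHGA4, PCDHGA5 and PCDHGA6) against 9.52% of all promoters, and at 2 in CTRL (PCDHGB1 and PCDHGB2) against 7.37%. PCDHGA4, PCDHGA5 and PCDHGA6 gained it (3 members, against 1.95% of promoters), and PCDHGB2 lost it (1 member, against 0.729%). With DOX, PCDHGA4 had 11 and 38 reads, PCDHGA5 26 and 14 reads, and PCDHGA6 14 and 10 reads, and the CTRL libraries had no island there. PCDHGB2 had no island with DOX, against 15 and 12 reads over 0 input reads in CTRL. PCDHGB1 had 46 and 69 reads with DOX and 18 and 62 reads in CTRL. These 5 genes lie close together in the first part of gamma. Both DOX libraries were deeper, with 3657645 and 3531946 island reads against 2681872 and 2773158 in CTRL. The part of depth in these gains was not tested.

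H3K9me3 was called at 0 members in the DOX group (0.165% of all promoters) and at 0 in the CTRL group (0.19%), with 0 gained (0.0349%) and 0 lost (0.0948%). Single H1299 libraries still called members more often than promoters in general: 1 and 3 members with DOX (1.89% and 5.66%, against 0.509% and 0.943% of promoters) and 1 and 12 in CTRL (1.89% and 22.6%, against 0.614% and 2.43%). CTRL replicate 2 stood apart, with 7.99% of the gamma subcluster covered, against 0.326% in CTRL replicate 1 and 0% and 0.761% with DOX. Its islands held 27 reads at PCDHGA5, 24 at PCDHGB1, 17 at PCDHGA3 and 17 at PCDHGB2. In that library 54% of the covered bases of the cluster lay in first exons, which make up 22.1% of the cluster. The share was 17.6% in CTRL replicate 1 and 0% and 10.3% with DOX.

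Coverage of the whole cluster was compared over libraries with exact two-sided permutation tests, in which 2 against 2 libraries cannot give a p below 0.33. H3K27ac covered 2.72% and 1.11% of the cluster with DOX and 0.728% and 0.439% in CTRL (1.91% ± 1.13 and 0.584% ± 0.204, SD, n = 2 each, exact p = 0.33). H3K4me1 covered 1.54% and 1.69% with DOX and 0.59% and 1.21% in CTRL, and H3K36me3 1.4% and 1.46% with DOX and 1.22% and 1.18% in CTRL (exact permutation p = 0.33 for both). These 3 marks did not overlap between the groups, and genome-wide coverage was also higher in every DOX library for each of them (H3K27ac 2.06% and 0.956% with DOX, 0.791% and 0.744% in CTRL). Relative to genome coverage, H3K36me3 turned round, with 0.335 and 0.356 with DOX and 0.383 and 0.357 in CTRL, whereas H3K27ac had 1.32 and 1.16 with DOX and 0.919 and 0.591 in CTRL, and H3K4me1 0.8 and 0.846 with DOX and 0.435 and 0.642 in CTRL. H3K9me3 covered 0.673% and 1.41% with DOX and 0.467% and 3.5% in CTRL, and the groups overlapped (exact permutation p = 1). H2AK119ub covered 0.0549% and 0% with DOX and 0% and 0.124% in CTRL (exact permutation p = 1).

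Set against H1299 CTRL, H661 had H3K9me3 islands at more members. Islands lay in both H661 libraries and neither CTRL library at 14 members (PCDHA1 to PCDHA5, PCDHA7 to PCDHA10, PCDHA12, PCDHB13, PCDHB15, PCDHGA8 and PCDHGB5), against 3.72% of all promoters, and the reverse at 0 members, against 0.135%. Cluster coverage was 8.51% ± 2.04 in H661 and 1.98% ± 2.15 in CTRL (SD, n = 2 each, exact permutation p = 0.33), and the libraries did not overlap. The H1299 H3K9me3 lists were far shallower, with 137991 to 306912 island reads against 1930403 and 2950537 in H661. Per 1000000 island reads the cluster held 997 and 505 reads in H661, 660 and 697 with DOX and 573 and 1186 in CTRL, and on that scale the groups overlapped. Relative to genome coverage, the cluster was covered 4.15 and 2.12 times as much in H661, 3.18 and 3.26 times with DOX and 2.15 and 4.67 times in CTRL. Both scales include TAF7, a gene between beta and gamma that is not a member. Its H3K9me3 region held 47 of 98 and 44 of 214 cluster reads with DOX, and 49 of 79 and 54 of 345 in CTRL. Coverage of alpha, beta and gamma was 0.22%, 0.201% and 0% in DOX replicate 1 and 0%, 0% and 0.326% in CTRL replicate 1. The overlap of the groups therefore does not describe the members alone. Cell line, input and depth cannot be told apart in this comparison.

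For the other marks few members were called in 1 line alone. H3K27ac lay in H661 alone at 1 member (PCDHGA11, with 18 reads in both libraries, against 12.1% of promoters) and in CTRL alone at 1 (PCDHB14, against 0.769%). H3K36me3 lay in H661 alone at 0 (2.92%) and in CTRL alone at 2, PCDHGB1 and PCDHGB2 (1.7%). H2AK119ub gave 0 and 0 members (11.4% and 1.98%), as did H3K4me1 (7.26% and 10.3%). The cluster was covered to 0.137% and 0.151% by H3K36me3 in H661 and to 1.22% and 1.18% in CTRL, and to 0.0824% and 0.11% by H3K4me1 in H661 and to 0.59% and 1.21% in CTRL (exact permutation p = 0.33 for both). Relative to genome coverage these were 0.0227 and 0.0583 in H661 and 0.383 and 0.357 in CTRL for H3K36me3, and 0.0255 and 0.0451 in H661 and 0.435 and 0.642 in CTRL for H3K4me1. On this scale H3K27ac had 0.196 and 0.262 in H661 and 0.919 and 0.591 in CTRL, and none of these 3 marks overlapped between the lines. Plain H3K27ac coverage of the cluster did overlap, with 0.439% and 0.934% in H661 and 0.728% and 0.439% in CTRL. Genome coverage of H3K27ac was 2.24% and 3.56% in H661 and 0.791% and 0.744% in CTRL. Cell line, input and depth cannot be told apart here either.

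Read counts could be compared by edgeR's quasi-likelihood test only in regions that islands covered to at least 50% in every library, and few regions of the cluster met this. Of 24 H3K27ac regions in the cluster 0 were testable between DOX and CTRL, of 3 H2AK119ub regions 0, of 26 H3K4me1 regions 1, of 18 H3K36me3 regions 2, and of 34 H3K9me3 regions 1. None passed an adjusted p of 0.05 with a log2 change of at least 0.5 in edgeR or DESeq2, and none had an unadjusted p under 0.05. The region at PCDHGB1 (hg38 chr5:141349801-141350900) had 16 and 25 H3K36me3 reads with DOX and 18 and 23 in CTRL, a log2 change of -0.22 ± 0.32 (SE, edgeR adjusted p = 0.968), where 0.265% of all tested regions were called. The H3K4me1 region between alpha and beta (chr5:141039601-141040600) had 16 and 19 reads with DOX and 13 and 13 in CTRL (log2 change 0.30 ± 0.36 SE, edgeR adjusted p = 0.883, with 0.251% of regions called). TAF7, a general transcription factor gene that lies between beta and gamma, had both H3K36me3 (123 and 149 reads with DOX, 100 and 149 in CTRL, edgeR adjusted p = 0.988) and H3K9me3. Its H3K9me3 region had 47 and 44 reads with DOX and 49 and 54 in CTRL (log2 change -0.42 ± 0.23 SE, edgeR adjusted p = 0.646). Of the 62 H3K9me3 regions tested genome-wide 0% were called by edgeR, and 5 had an unadjusted p under 0.05. Between H661 and CTRL 1 region of the cluster was testable, for H3K27ac between alpha and beta (chr5:141040201-141041200), with 27 and 61 reads in H661 and 27 and 28 in CTRL (log2 change -0.36 ± 0.30 SE, edgeR adjusted p = 0.417, with 21.6% of regions called).

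Genes that act on or with the cluster were looked at in lists chosen with earlier results known. Over all promoters H3K27ac was called at 58.1% in H661, 51.3% with DOX and 38.3% in CTRL, and DPPA2/4 consensus peaks at 26.3%, and no list was tested against these shares. All 11 genes of CTCF, cohesin and its loaders had H3K27ac in H661, DOX and CTRL, and consensus peaks lay at 3 of the 11 in H661 (CTCF, STAG1 and PDS5A). Of 14 genes for H3K9me3, DNA methylation and related silencing, H3K27ac was called at 14 in H661, 14 with DOX and 12 in CTRL. Consensus peaks lay at 7 of these 14: SMCHD1, DNMT1, DNMT3A, DNMT3B, MORC2, EHMT2 and EHMT1. DNMT3A, a DNA methyltransferase, gained H3K27ac with DOX (5.03% of all promoters did), and EHMT2, an H3K9 methyltransferase, gained H2AK119ub, as did PDS5A and NIPBL (3.04%). ATF7IP and MORC2, partners of SETDB1-linked silencing, gained H3K9me3 (0.0349%), and RAD21 lost H3K4me1 (1.12%). Of 10 signalling partners of the proteins, chiefly the WAVE complex and the kinases RET, FYN and PTK2, H3K27ac was called at 6 in H661, 7 with DOX and 7 in CTRL, and consensus peaks lay at CYFIP1, NCKAP1, ABI2, WASF1 and FYN.

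As a check of the cell lines, H3K27ac was called at 4 of 6 epithelial markers in H661, 1 with DOX and 2 in CTRL, at 2, 3 and 2 of 5 mesenchymal markers, at 1 (NKX2-1), 0 and 0 of 5 lung lineage markers, and at 1, 2 and 1 of 7 neuronal and neuroendocrine markers. TUBB3 was the neuronal marker called in all 3 groups. Island reads per library ran from 137991 to 6961886 over the 38 libraries.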

How the data were processed

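ChIP-seq libraries had been made by the authors from crosslinked cells (double crosslinking for factors, single for histone marks), trimmed with Trim Galore 0.6.6 and aligned to GRCh38 with BWA 0.7.13. Deposited were 38 EPIC2 island lists and 6 MACS2 narrow peak lists. The deposited EPIC2 lists give each island its whole-number count of ChIP and of input reads, its p-value with FDR, a score and its log2 fold over input, and the deposited MACS2 lists hold a fold signal, a −log10 p-value, a −log10 q-value and a score, all as the authors computed them per library. Reads outside islands are not in the lists, so a missing island has no count. No list was filtered on the ENCODE blacklist here.

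From these lists, islands on 24 standard chromosomes with FDR below 0.05 and log2 fold above 1 were set on 20033 GENCODE promoters (start plus or minus 1500 bp), and a call needed every library of a group. Calls for DPPA2/4, KDM2A and SUZ12 used narrow peaks. The rule's "digit or C and digit" was read as covering PCDHGA and PCDHGB, and both readings were counted. Island reads were summed over merged regions and tested by edgeR 4.0.16 quasi-likelihood with TMM factors and Benjamini-Hochberg adjustment in R 4.3.3 (DESeq2 1.42.0 as the alternative), with replicate number as a block for DOX against CTRL. The block follows the study's methods, and the labels tie the numbers to no shared day or batch. Deviations of same-numbered libraries had a correlation of 0.26 in H3K27ac regions, with 0.1 in H2AK119ub, 0.077 in H3K36me3, 0.055 in H3K9me3 and 0.039 in H3K4me1 regions. Scripts were tested on simulated counts. Cluster coverage was compared by exact permutation. Island reads ranged from 137991 to 6961886 per library. Members and lists were chosen with earlier results of these data known. Values in every library were given for members with a consensus peak, those gained or lost with DOX, the 3 members of highest fold in the weaker library for each mark, the C-type members, and members standing alone in a call, the last named after their values were seen. Alternatives covered the fold limit, window, replicate rule, overlap, region minimum, offset, block and left-out libraries, and the window downstream of the start and the 50-base word limit were added after the data were seen. The result of 1 further marker list is not reported here.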

Additional observations from a re-analysis of the deposited data

How the results depend on the processing

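Most counts of members called are small and moved with the settings, and the H661 H3K9me3 count depends on the window. With log2 fold above 2 the counts were 0 for H661 H3K27ac, 0 for H661 H2AK119ub, 1 for SUZ12, 2 for DOX and 1 for CTRL H3K36me3, and gains with DOX were 1 each for H3K27ac, H3K4me1 and H3K36me3. With plus or minus 500 bp the H661 counts were 2 of 53 for H3K9me3, a window in which the share of all promoters was not computed, and 0 for H2AK119ub, and 1 member gained H3K4me1. An island in either replicate gave 5, 8, 1, 42 and 2 members for H661 H3K27ac, H2AK119ub, H3K4me1, H3K9me3 and H3K36me2, 10, 6 and 4 for DOX H3K27ac, H3K4me1 and H3K9me3, and 6, 1, 10 and 13 for CTRL H3K27ac, H2AK119ub, H3K4me1 and H3K9me3. The counts for log2 fold above 2 and for either replicate stand without a share of all promoters under the same setting. They show how the counts move with the rule and are no result about the members. Without PCDHGA and PCDHGB genes, H661 H3K9me3 was called at 13 and H3K27ac at 1, and H3K36me3 at 0 in DOX and 0 in CTRL. The window to 3000 bp downstream gave 34 in H661 and 1 in CTRL. DPPA2/4 consensus at over 50% overlap gave 0 and shared EPIC2 domains 3 members (PCDHAC2, PCDHGA10 and PCDHGB7, against 46.9% of promoters). Coverage differences (percentage points) were 0.316 (log2 above 2) and 0.364 (no fold limit) for H3K4me1 DOX minus CTRL, -1.15 (no limit) for H661 minus CTRL, 0.163 (log2 above 2) for H3K36me3 DOX minus CTRL, and -0.686 (log2 above 2) and -1.12 (no limit) for H661 minus CTRL. Without the region minimum, where a missing island enters as 0, edgeR called 3 H2AK119ub and 4 H3K9me3 regions of the cluster for DOX, and 1 H3K27ac, 2 H3K4me1, 1 H3K36me3 and 33 H3K9me3 regions for the lines, which that setting builds in. DESeq2, a covered-length offset and the fit with no replicate block each gave 0 calls in the cluster, and the block changed no other call. With 0 to 2 testable regions a mark in the cluster, these counts of 0 say nothing about stability.

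Leaving out 1 of 2 libraries gives the other library's own count of members called. By the rules for calls, gains and losses, these counts can then only stay or rise, so their ranges do not measure stability. Leaving out 1 library, members called ranged from 25 to 37 for H661 H3K9me3 (20 with both libraries). They ranged from 2 to 5 for H3K27ac, 1 to 8 for H2AK119ub, 0 to 1 for H3K4me1 and 0 to 2 for H3K36me2. In H1299 they ranged from 6 to 10 (DOX) and 4 to 5 (CTRL) for H3K27ac, 0 to 1 for CTRL H2AK119ub, 4 to 4 (DOX) and 4 to 6 (CTRL) for H3K4me1, 4 to 5 (DOX) and 2 to 3 (CTRL) for H3K36me3, and 1 to 3 (DOX) and 1 to 12 (CTRL) for H3K9me3. H661 H3K36me3 and DOX H2AK119ub stayed at 0, and the DPPA2/4 count at 1. Gains ranged from 2 to 6 for H3K27ac, 0 to 1 for H3K4me1, 3 to 3 for H3K36me3, 0 to 1 for H3K9me3 and 0 to 0 for H2AK119ub, and losses from 0 to 2, 0 to 3, 1 to 1, 0 to 9 and 0 to 1 for the same marks, with the 9 reached without CTRL replicate 1. Coverage DOX minus CTRL ranged from 0.529 to 2.13 for H3K27ac, -0.0961 to 0.0275 for H2AK119ub, 0.405 to 1.02 for H3K4me1, 0.196 to 0.254 for H3K36me3 and -2.46 to 0.577 for H3K9me3, the last turning on CTRL replicate 2. H661 minus CTRL ranged from -0.144 to 0.35, 0.0206 to 1.53, -1.11 to -0.494, -1.08 to -1.04 and 5.01 to 8.05 for the same marks. All edgeR counts in the cluster ranged from 0 to 0. Depth limits H1299 H3K9me3, whose lists are the shallowest, and what falls outside islands is not seen. Some H1299 calls rest on short islands of about 10 reads, such as H3K27ac at PCDHB14 in CTRL (11 and 7 reads). Others rest on longer islands, with up to 75 reads for DOX H3K27ac at PCDHGA3.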

Other observations

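Outside the promoter windows, active marks gathered at 2 intervals of the cluster. The interval between alpha and beta (hg38 chr5:141039601-141041200) had H3K27ac islands of 27 and 61 reads in H661, none and 25 reads in H1299 DOX, and 27 and 28 reads in H1299 CTRL, with H3K4me1 of 16 and 19 reads in DOX and 13 and 13 in CTRL. The interval over the last shared gamma exons and the intron between them (chr5:141507101-141510500) had H3K27ac of none and 31 reads in H661, 135 and 38 in DOX and 33 and 13 in CTRL. Its H3K4me1 islands had 85 and 67 reads in DOX, and none and 58 reads in CTRL. The second interval was chosen as the longest H1299 DOX H3K27ac island of the cluster, so its values are a description.

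The protocadherins outside the cluster and its neighbours were counted in the same way, with no test between them and the clustered genes. Of 12 non-clustered genes, H3K27ac was called at 3 in H661 (PCDH9, PCDH7 and PCDH18), 2 with DOX (PCDH9 and PCDH7) and 1 in CTRL (PCDH9), beside 58.1%, 51.3% and 38.3% of all promoters, and PCDH7 gained it (5.03%). In H661, SUZ12 was at 6 of 12 (50%, beside 15.6% of all promoters), H2AK119ub at 4 (33.3%, beside 24.3%), H3K9me3 at PCDH8 and PCDH19 (16.7%, beside 4.14%), and DPPA2/4 consensus peaks at PCDH8 and PCDH9 (16.7%, beside 26.3%). Among 27 genes within 500 kb of the cluster, H3K27ac was called at 21 in H661, 21 with DOX and 14 in CTRL, H3K9me3 at 1 in H661 (3.7%, beside 4.14%), and DPPA2/4 consensus peaks at 8 (29.6%, beside 26.3%). Of the 3 other genes inside the cluster, SLC25A2, a mitochondrial carrier, had H3K9me3 in H661, and TAF7 had H3K27ac in all 3 groups.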
